A study of Rattus norvegicus with 58 samples.

Results

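Gastrocnemius of adult rats and of rats with established sarcopenia was compared gene by gene. The comparison rests on 19 of the 58 RNA libraries of the study, chosen by muscle and age: the 10 gastrocnemius libraries of rats of 8 months, called adult, and the 9 of rats of 24 months, called sarcopenic. All were male Wistar rats, and the labels give no genotype, treatment or other agent for either group. Each library holds polyA RNA from the gastrocnemius of 1 rat, so the ages were compared across different rats and not within rats followed over time. The same rats also gave triceps brachii, a forelimb muscle that the study set beside this hindlimb muscle to ask what accompanies muscle wasting and what accompanies age alone. Whole muscle holds connective tissue, vessels, nerve ends and immune cells beside its fibres, and in such bulk RNA fewer cells of a type and less RNA per cell cannot be told apart.

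Gastrocnemius is built largely of fast fibres, which draw on glycogen and glycolysis for short bursts of force and on mitochondria for sustained work. In an innervated adult fibre the nuclei under the nerve ending transcribe the acetylcholine receptor genes, and activity of the nerve keeps those genes low in the other nuclei. Loss of nerve supply is known to raise receptor subunits, the kinase MuSK and myogenic factors such as MyoD along the fibre, and repair of muscle brings in fibroblasts, macrophages and newly made matrix.

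Between 14966608 and 29398080 reads were counted on genes in the adult libraries and between 15064285 and 72297573 in the sarcopenic libraries, and the difference of the means did not pass a test (exact permutation test, two-sided, p = 0.252, n = 10 and 9). Levels are given as TMM CPM, the CPM (the reads of a gene relative to the library total) after edgeR's TMM scaling. They are not divided by gene length and serve to compare libraries, not genes. The TMM factors, 0.889 to 1.01 in adult and 1.03 to 1.43 in sarcopenic libraries, did not overlap. Among the sarcopenic rats, rat 47 stood apart. Of the 550 genes that were regulated upward with a mean level of at least 1 TMM CPM, 62.6% lay above all 10 adults in rat 47, against 82.6% to 94.6% in the 8 other sarcopenic rats. Of the 282 regulated downward, 50.0% lay below all adults in rat 47 and 74.1% to 91.8% in the others. Both sets were called on these same libraries, so the shares describe the rats and are no test. Without rat 47 the number of regulated genes, defined below, went from 1349 to 1475.

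The most abundant genes of gastrocnemius, those of 1000 TMM CPM or more, had more falls than rises with age, and those of 0.1 to 10 TMM CPM had more rises than falls, with TMM scaling as with library totals. Of 14947 genes that reached 20 reads in any of the 58 libraries, 6601 (44.2%) had an adjusted p under 0.05 in edgeR's quasi-likelihood test, 3372 higher (22.6%) and 3229 lower (21.6%) at 24 months. Only 1349 of these (9.03%) also changed more than 2-fold, here called regulated, with 977 higher (6.54%) and 372 lower (2.49%). The other 5252 genes, 79.6% of those past the test, changed by a fold of 2 or less. The median absolute log2 fold change of all genes past the test was 0.54. The read filter bears on the balance of directions, since a gene can enter through the sarcopenic gastrocnemius libraries alone. Of the 14397 genes that reached 20 reads in any other library, 3173 were higher and 3229 lower by adjusted p. Of the 13403 that reached them in an adult gastrocnemius library, 2853 were higher and 3205 lower. These restrictions were not applied by level class, so the balance at low levels was not tested without genes that entered through the sarcopenic libraries alone.

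The direction of small changes depended on the scaling, and large ones were mostly rises with either. With TMM factors and an absolute log2 fold change under 0.25, 362 genes fell and 200 rose, and between 0.25 and 0.5 the numbers were 1421 and 996. The balance turned between 0.5 and 1, with 1074 genes lower and 1199 higher. Between 1 and 2, 313 genes fell and 741 rose, between 2 and 3 the numbers were 35 and 136, and over 3 they were 24 and 100. With library totals in place of TMM, changes under 0.25 were 117 lower and 456 higher, those between 0.25 and 0.5 were 446 and 2587, and those between 0.5 and 1 were 339 and 3154, so that small changes were mostly rises too. Larger changes then gave 120 lower and 1533 higher between 1 and 2, 26 and 233 between 2 and 3, and 19 and 136 over 3. Under these totals the median over all genes moved from 0.02 to 0.36 on the log2 scale, and the regulated genes became 1902 higher and 165 lower, which is 92.0% higher in place of 72.4%.

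**Figure D1:**
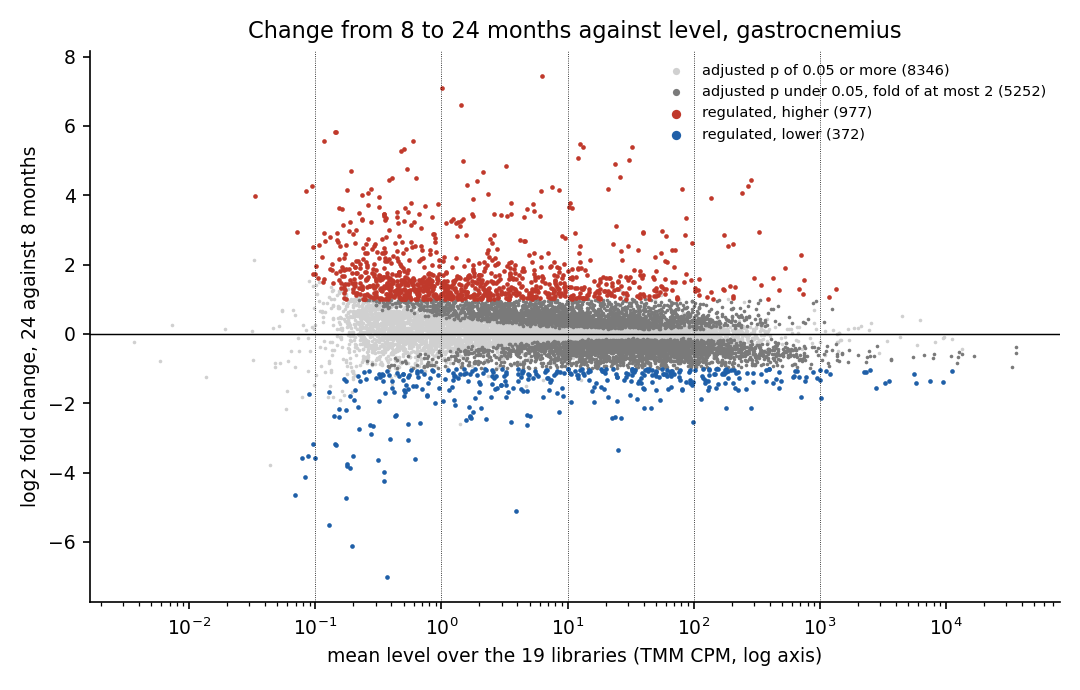
Log2 fold change from 8 to 24 months (vertical axis) against the mean level over the 19 gastrocnemius libraries in TMM CPM (horizontal log axis), 1 point per gene, with dotted lines at the class limits of 0.1, 1, 10, 100 and 1000. The 977 regulated genes that rose lie mostly at low levels, and 16 of the 18 regulated genes at 1000 TMM CPM or more fell.

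Genes were grouped by their mean level over the 19 libraries. Of 2234 genes of 0.1 to 1 TMM CPM, 503 were regulated, with 420 higher and 83 lower. The read filter favours rises in this class, so its count and balance depend on the filter, as given below. At 1 to 10 TMM CPM, 356 of 4636 genes were regulated upward and 97 downward, and at 10 to 100 TMM CPM 160 of 6768 rose and 107 fell. The direction turned above that, with 32 higher and 62 lower of 1169 genes at 100 to 1000, and with 2 higher and 16 lower of the 88 genes of at least 1000 TMM CPM. The 52 genes under 0.1 TMM CPM gave 7 in each direction.

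Without a limit on the fold change the direction turned at a lower level. In the class of 0.1 to 1 TMM CPM 24.7% of the genes rose and 5.33% fell past the test, at 10 to 100 the shares were 18.6% and 28.9%, and at 1000 or more they were 4.55% and 61.4%. The median log2 fold change fell with each step from 0.34 at 0.1 to 1, through 0.14, -0.06 and -0.23, to -0.56 at 1000 or more. Under library totals these medians were 0.68, 0.48, 0.28, 0.10 and -0.26, so that their order was kept while the genes of 10 to 1000 TMM CPM had more rises than falls. Genes with few reads also carried a larger error: the median SE of the log2 fold change was 0.37 at 0.1 to 1 and 0.10 at 10 to 100 TMM CPM, and the median absolute log2 fold change of genes past the test was 1.34 and 0.41 in these classes. The filter on low counts bears on the lowest classes, since a gene can enter through the deepest library alone, which is that of sarcopenic rat 44. Without this rat 384 genes were higher and 78 lower in the class of 0.1 to 1, and with edgeR's stricter filterByExpr the numbers were 268 and 53.

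**Figure D2:**
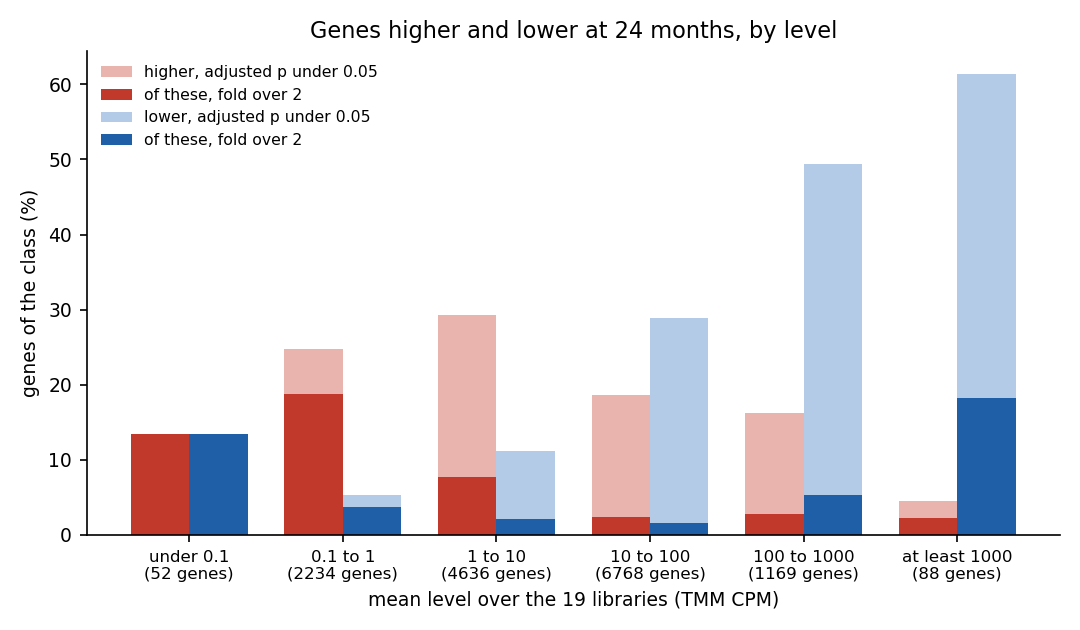
Share of the genes of each level class (horizontal axis, mean TMM CPM over the 19 libraries) that were higher (red) or lower (blue) at 24 months, in percent. Pale bars count an adjusted p under 0.05 and dark bars those of them with a fold over 2; by adjusted p rises lead from 0.1 to 10 TMM CPM and falls lead above, while among changes over 2-fold falls lead from 100 TMM CPM.

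The share of reads taken by the most abundant genes restates the same shift and is no separate result. The 88 genes of at least 1000 TMM CPM took 45.3% to 50.5% of all reads in the adult and 34.8% to 46.0% in the sarcopenic libraries, with means of 48.3 ± 1.64% (SD, n = 10) and 40.7 ± 4.41% (SD, n = 9) that differed in an exact two-sided permutation test (p = 8.66e-05). The ranges overlapped in rats 44 and 47, which had 46.0% and 45.7%. Genes with at least 1 read numbered 17028 ± 361 (SD, n = 10) in adult and 17967 ± 498 (SD, n = 9) in sarcopenic libraries (exact two-sided permutation test, p = 0.000455), and part of this count moves with depth.

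Separation between the ages was as common in both directions although large changes were mostly rises. Over all 14947 genes the sarcopenic libraries lay above all adults for 506 (3.39%) and below all adults for 500 (3.35%), which is 6.73% in either direction. By level, the 506 were spread over 53 genes at 0.1 to 1, 208 at 1 to 10, 208 at 10 to 100, 37 at 100 to 1000 and 0 above, and the 500 over 3, 36, 307, 140 and 14 in the same classes. Under library totals the numbers were 1276 above and 120 below.

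In triceps brachii of the same rats, 406 genes (2.72%) passed the test from 8 to 24 months. Its shares lay between 1.79% and 3.41% in the 5 classes above 0.1 TMM CPM, as classed by gastrocnemius. The change differed between the muscles for 2159 genes (14.4%) in an edgeR test with the rat as a block. That share was 5.24% of the genes at 0.1 to 1, 10.4% at 1 to 10, 16.7% at 10 to 100, 33.3% at 100 to 1000 and 38.6% at 1000 TMM CPM or more.

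Gene symbols were at hand for 2163 of the genes, through a supplementary table of the study that pairs identifiers with symbols for genes whose change with age differed between the muscles. These genes were thus selected on the same libraries: 93.3% of them passed the present test, 38.1% higher and 55.1% lower, and their median log2 fold change was -0.38 against 0.02 over all genes. Of these genes 12.4% lay above all adults and 16.2% below in every sarcopenic library. Counts for the lists of genes below are to be read against these shares, since a list in which nearly all members passed lies near this background. The lists describe direction and size, and they are not independent evidence of a direction. Members of a list are those with a symbol, and some lists hold many more genes. Some lists also share members.

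The genes with the largest rises differed by level class. Among genes with a symbol at 10 to 100 TMM CPM, Emb, a companion of monocarboxylate transporters, had 0.239, 0.776 and 0.904 TMM CPM in adult and 3.48, 18.2 and 57.5 TMM CPM in sarcopenic libraries (lowest, median and highest, as in all such triplets). It was followed by Tmem158, a transmembrane protein first described in senescent cells, with a log2 fold change of 5.03 (SE 0.41), and Ppp1r14c, an inhibitor of protein phosphatase 1, with 4.89 (SE 0.48). No sarcopenic value of the 3 genes reached down to the adult range. At 100 to 1000 the leaders were Cdkn1a, Ankrd1 and Postn, which return below with their lists.

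At 1 to 10 TMM CPM the largest rise with a symbol was that of Krt18, keratin 18 of simple epithelia, with 0, 0.022 and 0.354 TMM CPM in adult and 2.85, 12 and 24.8 TMM CPM in sarcopenic libraries. The ages were separate, and its log2 fold change of 7.44 (SE 0.61) became 8.22 without adult rat 5. Sohlh2, a transcription factor of germ cells, had 2 adult and 564 sarcopenic reads, whose ratio per total read was 234 (95% Clopper-Pearson interval 64.6 to 1940, counting error only), and its groups overlapped. Tp73 was the third and is described with the p53 targets. At 0.1 to 1, RGD1566226, an uncharacterised gene, rose by 5.57 (SE 0.76) on the log2 scale without overlap, and by 6.24 without adult rat 3.

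Mir675 (ENSRNOG00000040350) led the class of 1000 or more. These reads lie on the locus of a microRNA inside the H19 transcript and come from polyA RNA, so they do not measure the mature microRNA. It had 544, 714 and 1224 TMM CPM in adult and 675, 1894 and 3739 TMM CPM in sarcopenic libraries, and only rat 47 lay within the adult range (log2 fold change 1.28, SE 0.23, edgeR adjusted p = 7.92e-06). Among genes past the test it had the largest gain in level, ahead of Mustn1, a small nuclear protein of regenerating muscle and bone, with 82.4, 252 and 417 TMM CPM in adult and 472, 1352 and 1669 TMM CPM in sarcopenic libraries. All 9 sarcopenic libraries exceeded all adults for Mustn1 (log2 fold change 2.28, SE 0.35).

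Among the falls, AABR07022113.1, an uncharacterised gene, led at 10 to 100 TMM CPM. Next came Sema7a, a membrane-anchored semaphorin, with 103, 139 and 291 TMM CPM in adult and 18.5, 25.8 and 46.6 TMM CPM in sarcopenic libraries (log2 fold change -2.54, SE 0.30, edgeR adjusted p = 1.98e-09). At 100 to 1000 the largest fall with a symbol was that of Mss51, a mitochondrial protein enriched in fast muscle. It had 348, 423 and 727 TMM CPM in adult and 36.2, 106 and 138 TMM CPM in sarcopenic libraries and a log2 fold change of -2.13 (SE 0.23). Neither gene overlapped between the ages. At 1 to 10, Ubxn10, a protein of the UBX family, fell by 2.55 (SE 0.37) on the log2 scale, again without overlap. The next there, AC133316.1 (-2.47, SE 0.53) and AABR07034455.2 (-2.40, SE 0.42), are uncharacterised and overlapped. At 0.1 to 1 the falls with a symbol were led by AABR07049033.2 (-2.88, SE 0.51), also uncharacterised, and by 7SK, a small nuclear RNA. The log2 fold change of 7SK was -2.59 (SE 0.73), and -3.65 without sarcopenic rat 46. Both genes overlapped. The reads of 7SK come from polyA RNA, so they may not measure its level.

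Among genes past the test, the largest losses in TMM CPM were far larger than the largest gains. The higher TMM factors of the sarcopenic libraries lower their TMM CPM, so the size of losses and gains depends on the scaling. Mt-co1, a subunit of cytochrome c oxidase encoded in mitochondria, fell by 13460 TMM CPM, from a mean of 42004 ± 5684 (SD, n = 10) to 28544 ± 9412 (SD, n = 9), although its fold change was modest (-0.56, SE 0.16 on the log2 scale). Aldoa, the muscle aldolase of glycolysis, fell by 8301 TMM CPM, from 13441 ± 3448 (SD, n = 10) to 5139 ± 2109 (SD, n = 9), with a log2 fold change of -1.39 (SE 0.19). Both genes overlapped between the ages through the highest sarcopenic libraries. Under library totals Mt-co1 had a log2 fold change of -0.27 and lost its call, while Aldoa kept it. The largest loss was that of ENSRNOG00000049695, which has no symbol here and fell by 21382 TMM CPM. By comparison, the gains of Mir675 and Mustn1 were 1138 and 965 TMM CPM. Next in gain was ENSRNOG00000029079, without a symbol, with 851 TMM CPM and overlap. Its log2 fold change of 1.06 (SE 0.41) lost its call without any 1 of rats 41, 44, 4, 7 and 8, with adjusted p values of up to 0.0700 (edgeR).

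Some large fold changes rested on very few reads. The adult libraries together held 0 reads of Clrn1 and the sarcopenic ones 83, at least 23.0-fold higher per total read when 3 reads over the adult group are taken as the floor. Cyp2c11 and Tat, which are liver enzymes, had 28 and 36 reads in adult and 2 and 3 in sarcopenic libraries. Their ratios of reads per total were 0.0594 (95% Clopper-Pearson interval 0.00685 to 0.235) and 0.0692 (0.0136 to 0.219), intervals that cover counting error only. Most of the adult reads of both came from rat 5, with 1.06 TMM CPM of Cyp2c11 against at most 0.151 in any other adult and 1.21 of Tat against at most 0.502. Without rat 5 neither had enough reads to be tested.

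Of 14 genes listed for the postsynaptic side of the neuromuscular junction 4 had a symbol, and all 4 rose (median log2 fold change 2.06). Their promoters are shown because these genes share a short sequence known to bind myogenic factors such as MyoD, the E-box CAGCTG. The 250 bases before the start site are printed 5′ to 3′ on the strand of the gene, from RefSeq in build GRCr8, with CAGCTG in capitals.
Chrna1 (chr3:78877354-78877603, minus strand): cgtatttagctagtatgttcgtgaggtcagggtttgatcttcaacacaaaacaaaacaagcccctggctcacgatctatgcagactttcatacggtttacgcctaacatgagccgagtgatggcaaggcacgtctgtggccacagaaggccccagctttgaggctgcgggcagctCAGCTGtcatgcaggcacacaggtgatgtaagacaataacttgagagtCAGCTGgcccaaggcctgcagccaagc
Chrnb1 (chr10:55015108-55015357, minus strand): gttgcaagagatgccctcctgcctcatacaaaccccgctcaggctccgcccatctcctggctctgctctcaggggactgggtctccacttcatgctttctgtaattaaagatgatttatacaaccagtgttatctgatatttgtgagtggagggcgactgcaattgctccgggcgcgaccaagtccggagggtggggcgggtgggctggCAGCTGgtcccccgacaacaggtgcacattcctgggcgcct
Chrne (chr10:55834155-55834404, minus strand): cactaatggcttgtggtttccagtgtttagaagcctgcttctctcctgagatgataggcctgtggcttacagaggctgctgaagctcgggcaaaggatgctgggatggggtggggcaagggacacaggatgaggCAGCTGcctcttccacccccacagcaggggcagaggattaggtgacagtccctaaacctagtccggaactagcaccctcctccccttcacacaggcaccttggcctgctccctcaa
Musk (chr5:77853486-77853735, plus strand): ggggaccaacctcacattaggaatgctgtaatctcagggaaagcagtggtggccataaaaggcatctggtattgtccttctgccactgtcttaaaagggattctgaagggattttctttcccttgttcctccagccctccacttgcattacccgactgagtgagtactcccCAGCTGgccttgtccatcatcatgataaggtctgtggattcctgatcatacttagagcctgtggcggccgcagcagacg
CAGCTG reads the same on both strands, and it stands 2 times in the window of Chrna1, with its first letter 75 and 27 bases before the start, and once each in those of Chrnb1 (41 bases), Chrne (116 bases) and Musk (79 bases). The looser form CANNTG, which includes CAGCTG, occurs 3 times in Chrna1, Chrnb1 and Musk and 1 time in Chrne. Of all 33469 promoter windows of this length in the table, 12.0% hold CAGCTG and 65.5% hold CANNTG. A match describes letters and is no evidence that a factor binds there.

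Chrna1 (ENSRNOG00000018286), the alpha subunit that binds acetylcholine, had 3.34, 6.51 and 16.8 TMM CPM in adult and 22.9, 154 and 284 TMM CPM in sarcopenic libraries. The sarcopenic rats all lay above the adults, rat 47 by far the closest to them, and the log2 fold change was 4.19 (SE 0.45) (edgeR, adjusted p = 1.52e-10). Musk (ENSRNOG00000033567), the kinase that gathers receptors under the nerve ending, had 1.13, 2.25 and 3.41 TMM CPM in adult and 7.28, 16.4 and 23.9 TMM CPM in sarcopenic libraries, again without overlap, and rose by 2.83 (SE 0.26) on the log2 scale (edgeR, adjusted p = 2.41e-12). Chrne (ENSRNOG00000003777), the adult epsilon subunit, had 5.07, 7.97 and 15.1 TMM CPM in adult and 11.5, 22.3 and 29.6 TMM CPM in sarcopenic libraries, with rats 44 and 47 inside the adult range, and a log2 fold change of 1.28 (SE 0.28) (edgeR, adjusted p = 0.000208). Chrnb1 (ENSRNOG00000014698), the beta subunit, had 58, 65.6 and 77 TMM CPM in adult and 77.6, 96 and 123 TMM CPM in sarcopenic libraries. Its groups did not touch, yet its log2 fold change of 0.52 (SE 0.10) was the smallest of the 4 (edgeR, adjusted p = 4.64e-05).

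Myogenic regulators rose in 13 of 17 members, 3 fell and 1 did not pass (median log2 fold change 0.95). Tmem8c, the fusion protein myomaker, rose by 3.24 (SE 0.44) on the log2 scale from a low level. Runx1, a transcription factor known to respond to denervation, had 2.38, 5.39 and 6.98 TMM CPM in adult and 15.8, 44.5 and 70.5 TMM CPM in sarcopenic libraries and rose by 3.11 (SE 0.34). Ncam1, an adhesion molecule of denervated fibres and satellite cells, had 8.41, 15.4 and 21.5 TMM CPM in adult and 51.5, 95.9 and 189.6 TMM CPM in sarcopenic libraries and rose by 2.83 (SE 0.28). The groups did not overlap for any of these 3 genes. Hdac4, a deacetylase that links loss of nerve activity to muscle genes, rose by 1.71 (SE 0.20) on the log2 scale without overlap. Myod1 (ENSRNOG00000011306), which encodes the factor MyoD, had 21, 36.7 and 55 TMM CPM in adult and 41.5, 86 and 141 TMM CPM in sarcopenic libraries, with overlap through rat 47, and rose by 1.30 (SE 0.22) (edgeR, adjusted p = 3.67e-06). Furthest in the other direction was Eya1, a coactivator of homeobox factors that support the fast fibre programme, with 12.9, 16.3 and 20.8 TMM CPM in adult and 5.19, 7.96 and 10.6 TMM CPM in sarcopenic libraries. Its groups were separate and its log2 fold change was -1.05 (SE 0.13).

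The list for isoforms of developing or cardiac sarcomeres differed in direction from that for adult fast fibres. It has 10 genes, 5 of them with a symbol, of which 4 rose. Tnnt2, Myl4 and Myh8 are such isoforms, while Ankrd1 and Lmod1 are not. Ankrd1, a stress-responsive titin-binding protein of heart muscle, had 11.2, 32.3 and 54.3 TMM CPM in adult and 77, 462 and 859.8 TMM CPM in sarcopenic libraries and a log2 fold change of 4.05 (SE 0.58) (edgeR, adjusted p = 1.17e-07). Tnnt2, cardiac troponin T, rose by 3.66 (SE 0.53) on the log2 scale. Both were without overlap, while Myl4, an atrial and embryonic light chain (0.89, SE 0.20), and Myh8, the perinatal myosin (0.79, SE 0.30), overlapped. Myh8 was the least secure of them: without sarcopenic rat 50 it had 0.60 on that scale (edgeR, adjusted p = 0.101), and its call was also lost without adult rats 1, 2, 4 or 10. Lmod1, the leiomodin of smooth muscle, went the other way, with 17.6, 41.1 and 72 TMM CPM in adult and 4.07, 7.19 and 16.3 TMM CPM in sarcopenic libraries and a log2 fold change of -2.43 (SE 0.27).

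Of 16 members for the adult fast sarcomere 15 fell (median log2 fold change -0.89). Their summed level was 20926 to 38030 TMM CPM in adult and 8329 to 19032 in sarcopenic libraries, without overlap. Mylk2, the kinase of the fast myosin light chain, had 1185, 1491 and 2446 TMM CPM in adult and 258, 430.4 and 644 TMM CPM in sarcopenic libraries and the largest fall, -1.83 (SE 0.18) on the log2 scale (edgeR, adjusted p = 1.62e-11). Mybpc2, fast myosin binding protein C, fell by 1.42 (SE 0.22), and Actn3, the alpha-actinin of fast fibres, by 1.41 (SE 0.23), both without overlap. Myoz1, a Z-disc protein of fast fibres, fell by 1.10 (SE 0.19) with overlap. Klhl41, a Kelch protein that stabilises the thin filament, was the exception, with 822, 965 and 1111 TMM CPM in adult and 1076, 1653 and 1850 TMM CPM in sarcopenic libraries and a rise of 0.73 (SE 0.12).

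Excitation and calcium handling followed the sarcomere, with 15 of 18 members lower, 2 higher and 1 not past the test (median log2 fold change -1.01). The list also holds Gpd1, cytosolic glycerol-3-phosphate dehydrogenase, a metabolic enzyme with no part in excitation, and without it 14 of 17 were lower (median -0.99). Nos1, the neuronal nitric oxide synthase of the sarcolemma, had 18.1, 37.1 and 54.1 TMM CPM in adult and 3.2, 9.83 and 16.3 TMM CPM in sarcopenic libraries and a log2 fold change of -1.92 (SE 0.25). Aqp4, the water channel of fast fibres, had 78.6, 188 and 228 TMM CPM in adult and 11.6, 39.4 and 109 TMM CPM in sarcopenic libraries and fell by 1.86 (SE 0.30), with overlap through rat 47. Kcna7, a potassium channel of muscle, fell by 1.37 (SE 0.16) without overlap, as did Gpd1 by 1.82 (SE 0.25). Atp2a1, the fast calcium pump of the sarcoplasmic reticulum, had 3297, 4876 and 7405 TMM CPM in adult and 882, 1858 and 3147 TMM CPM in sarcopenic libraries and fell by 1.34 (SE 0.18) without overlap. Tmem38b, a potassium channel of the reticulum that accompanies calcium release, rose by 0.95 (SE 0.14) and did not overlap either.

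Genes of other ion channels were divided, with 7 of 15 higher and 7 lower, and 5 higher and 7 lower among the 12 that reached 20 reads in an adult library. Chrna4, a neuronal receptor subunit that had at most 0.174 TMM CPM in any adult, rose by 3.65 (SE 0.57) on the log2 scale. Grin2c, a glutamate receptor subunit, rose by 2.65 (SE 0.46), and Kcnn3, the small-conductance calcium-activated potassium channel, had 10.3, 18.7 and 20.4 TMM CPM in adult and 32.5, 62.1 and 86.3 TMM CPM in sarcopenic libraries and rose by 1.82 (SE 0.19). None of the 3 overlapped. Cacna1e, a neuronal calcium channel, fell by 1.98 (SE 0.70) with overlap, and by 2.90 without rat 41, its highest sarcopenic library.

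**Figure D3:**
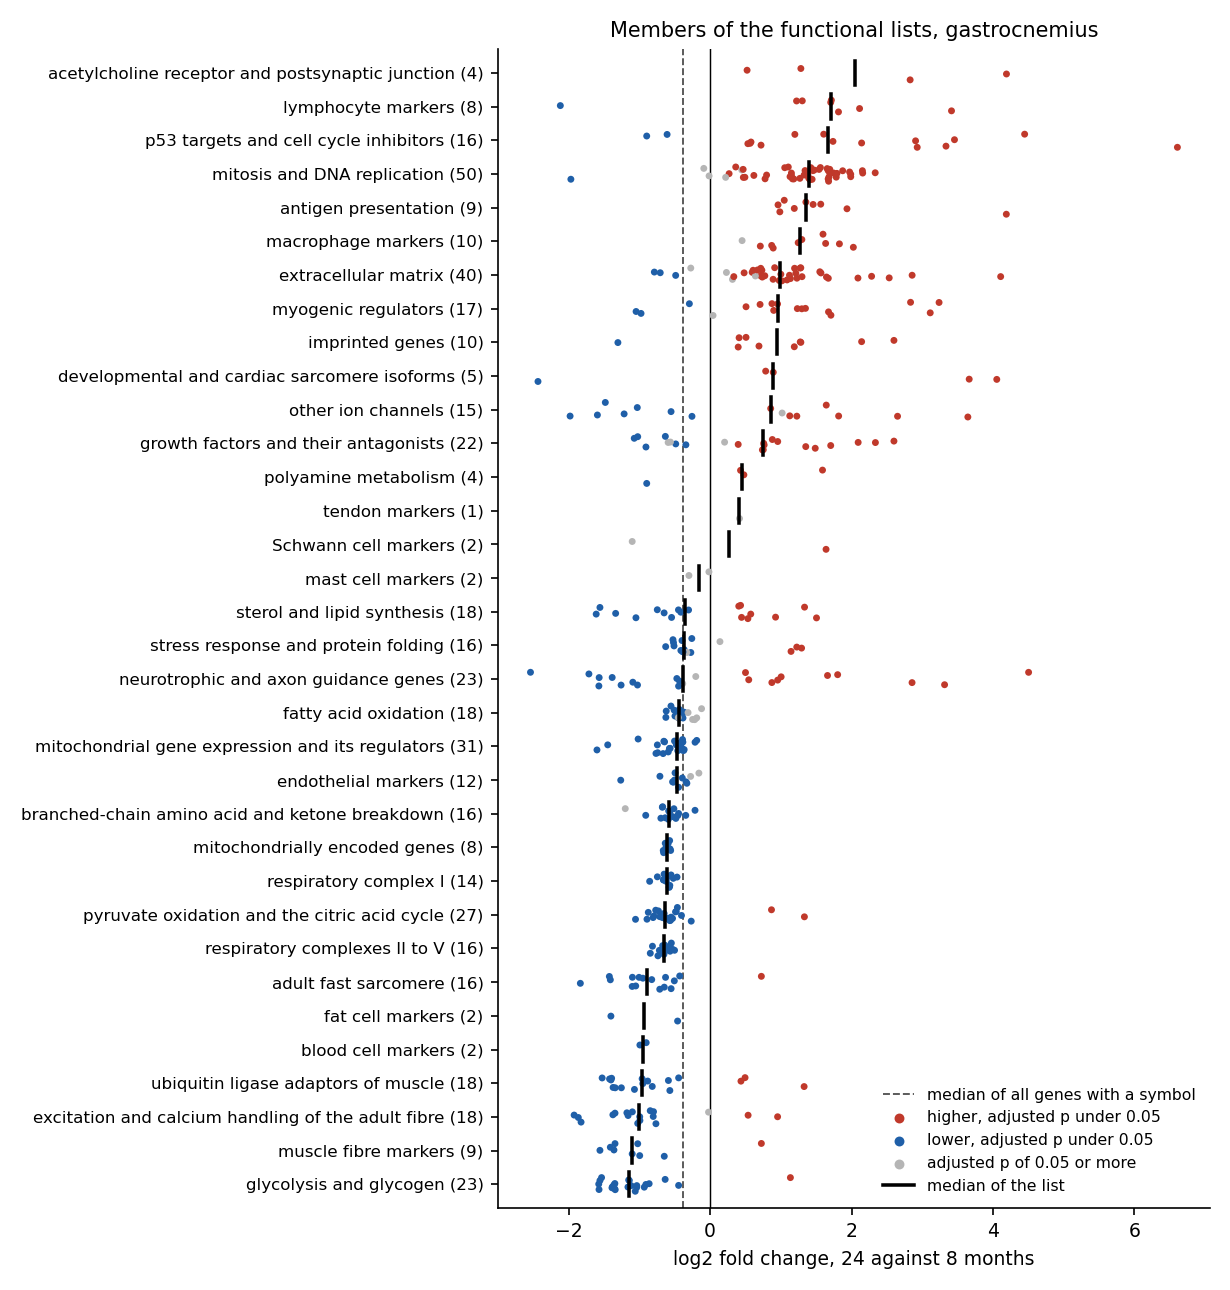
Log2 fold change from 8 to 24 months (horizontal axis) of each member of the 34 lists with a symbol, 1 row per list ordered by its median (black bar), number of members in brackets. Red points rose and blue points fell with an adjusted p under 0.05, and grey points did not pass. The dashed line marks the median of all genes with a symbol, -0.38. Glycolysis, fibre markers and excitation lie lowest and the junction, lymphocyte and p53 lists highest. The fibre markers share members with the glycolysis and excitation lists.

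Glycolysis and glycogen use had the lowest median log2 fold change of the 34 lists, -1.15: 22 of 23 entries were lower, 17 of them more than 2-fold. The summed level was 35193 to 64309 TMM CPM in adult and 9281 to 33313 in sarcopenic libraries. Pfkm, muscle phosphofructokinase, which commits sugar to glycolysis, had 3153, 4018 and 5014 TMM CPM in adult and 618, 1259 and 2392 TMM CPM in sarcopenic libraries and fell by 1.56 (SE 0.17) on the log2 scale (edgeR, adjusted p = 3.9e-10). Pfkfb1, which makes its activator, fell by 1.57 (SE 0.22), though rat 47 lay within the adult range. Phka1 and Phkg1, subunits of the phosphorylase kinase that starts glycogen breakdown, fell by 1.57 (SE 0.19) and 1.53 (SE 0.19) without overlap. Phka2, the liver form of the same subunit, was the member that rose, by 1.14 (SE 0.40) from a median of 0.149 to 0.421 TMM CPM. Pygm, the glycogen phosphorylase of muscle, had 7502, 10276 and 13872 TMM CPM in adult and 1640, 3811 and 7455 TMM CPM in sarcopenic libraries, again without overlap, and fell by 1.36 (SE 0.19).

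Respiratory chain genes fell by less than those of glycolysis. Of 37 genes listed for complex I 14 had a symbol, and of 39 for complexes II to V 15 did, with 16 entries. All of these 14 members and 16 entries were lower, with medians of -0.61 and -0.65. None changed more than 2-fold or separated the ages. Ndufs7, a subunit of the iron-sulfur chain of complex I, had 291, 389 and 451 TMM CPM in adult and 118, 168 and 346 TMM CPM in sarcopenic libraries and fell by 0.85 (SE 0.15). Sdha, the catalytic subunit of complex II, had 679, 889 and 1077 TMM CPM in adult and 325, 527 and 779.7 TMM CPM in sarcopenic libraries and fell by 0.74 (SE 0.13). Atp5b, the catalytic subunit of ATP synthase, fell by 0.72 (SE 0.12). The 2 entries of Cycs, cytochrome c, fell by 0.85 and 0.81, but reads of near-identical copies may be lost or misassigned.

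Genes encoded in mitochondria fell by a similar size, all 8 that had a symbol of 13 listed. Their median was -0.61 and their range from -0.66 to -0.56. Mt-cytb, of complex III, had 12810, 15266 and 16309 TMM CPM in adult and 5897, 9030 and 14595 TMM CPM in sarcopenic libraries, and Mt-nd5, of complex I, had 4889, 6425 and 9177 TMM CPM in adult and 2513, 4140 and 6762 TMM CPM in sarcopenic libraries. Their summed level was 92195 to 130824 TMM CPM in adults, and rats 44 and 47 lay within that range with 107945 and 107771. With library totals as scaling, the lower calls dropped to 12 of 14 for complex I, 14 of 16 for complexes II to V and 5 of 8 for the mitochondrial genome, and none of the members turned to a higher call.

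Enzymes of the citric acid cycle and pyruvate oxidation fell in 25 of 27 cases (median -0.64), and in 19 under library totals (median -0.34). Pdk2, a kinase that restrains pyruvate dehydrogenase, had 229, 271 and 276 TMM CPM in adult and 78.6, 119 and 201 TMM CPM in sarcopenic libraries and fell by 1.05 (SE 0.13) without overlap, next to Pc, pyruvate carboxylase (-0.89, SE 0.13), and Idh3a, of the cycle's isocitrate dehydrogenase (-0.87, SE 0.14). Me2, the mitochondrial malic enzyme, rose by 1.33 (SE 0.14) without overlap. Breakdown of branched-chain amino acids and ketones fell in 15 of 16 (median -0.58), and in 9 under library totals (median -0.28). The largest falls past the test were those of Oxct1, which activates ketone bodies (-0.91, SE 0.22), and Pcca, of propionyl-CoA carboxylase (-0.70, SE 0.10).

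Fatty acid oxidation was the mildest of the mitochondrial lists: 11 of 18 members fell, 7 did not pass, and the median was -0.43. Its largest falls were those of Acsl1, which activates long-chain fatty acids (-0.62, SE 0.17), and Acadm, the medium-chain dehydrogenase (-0.62, SE 0.18). Under library totals none of the 18 passed, with a median of -0.13. The call of falling fatty acid oxidation therefore rests on the scaling.

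All 31 members for mitochondrial gene expression and its regulators fell (median -0.46), 13 of them under library totals. Rxrg, a retinoid X receptor of fast muscle, had 75.2, 91 and 119 TMM CPM in adult and 18.3, 30.8 and 46.3 TMM CPM in sarcopenic libraries and fell by 1.60 (SE 0.18) without overlap. Perm1, a muscle regulator downstream of PGC-1, had 127, 234 and 285 TMM CPM in adult and 34.9, 60.7 and 175 TMM CPM in sarcopenic libraries and fell by 1.45 (SE 0.25) with overlap, and Ppargc1a, which encodes the coactivator PGC-1alpha, fell by 1.02 (SE 0.16) (edgeR, adjusted p = 1.25e-06). Rxra, a partner of many nuclear receptors, fell by 0.77 (SE 0.12) and did not overlap.

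Adaptors of ubiquitin ligases that are enriched in muscle fell in 15 of 18 cases (median -0.96), 10 of them without overlap. The Asb genes, which recruit substrates to cullin ligases, led: Asb4 (-1.53, SE 0.22), Asb11 (-1.42, SE 0.16), Asb18 (-1.40, SE 0.28) and Asb10 (-1.39, SE 0.15). Asb11 had 107, 126 and 185 TMM CPM in adult and 22.4, 45.1 and 97.5 TMM CPM in sarcopenic libraries, and its sarcopenic libraries all lay below the adults. Fbxo30, an F-box protein linked to muscle atrophy, went the other way with 13.9, 17.9 and 23.3 TMM CPM in adult and 27.1, 39.5 and 68.7 TMM CPM in sarcopenic libraries and a rise of 1.33 (SE 0.18), without overlap.

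Inhibitors of the cell cycle and targets of p53 were among the largest rises, 14 of 16 higher and 2 lower (median 1.67), with 12 higher and 2 lower among the 14 that reached 20 reads in an adult library (median 1.40). Cdkn1a (ENSRNOG00000000521), the inhibitor p21, had 12.8, 25.1 and 37.9 TMM CPM in adult and 180.2, 628 and 798 TMM CPM in sarcopenic libraries and a log2 fold change of 4.45 (SE 0.35) (edgeR, adjusted p = 3.09e-14). Rat 47 had the lowest of these, and the next sarcopenic library had 498 TMM CPM. Cdkn2a, which encodes p16 and ARF, rose by 3.46 (SE 0.50) from at most 0.303 TMM CPM in any adult, and Cdkn1c, the imprinted inhibitor p57, had 3.86, 5.73 and 7.15 TMM CPM in adult and 19.2, 23.1 and 35.5 TMM CPM in sarcopenic libraries and rose by 2.14 (SE 0.19). Gadd45a, a growth arrest gene, rose by 3.34 (SE 0.34), with 349 TMM CPM in rat 41 and 62.4 in rat 47. Tp73, a relative of p53, rose by 6.61 (SE 0.79) from 5 adult reads in total. None of these 5 genes overlapped. Tp53inp2, an autophagy factor of muscle, fell by 0.90 (SE 0.12), also without overlap.

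Genes of mitosis and DNA replication moved with the inhibitors, at low levels. The list has 58 genes, of which 50 had a symbol. Of these 50, 45 rose, 1 fell and 4 did not pass, with a median of 1.40, but the filter on reads favours rises here. By a restriction chosen after seeing the data, only 34 of them reached 20 reads in any library other than the 9 sarcopenic ones of gastrocnemius, and of these 29 rose, 1 fell and 4 did not pass, with a median of 1.15. Among the 22 that reached 20 reads in an adult gastrocnemius library, 17 rose and the median was 0.70. Members that entered through the sarcopenic libraries alone had to be higher there, so the count of 45 is no support for a direction. The summed level of the 50 was 82.4 to 110.1 TMM CPM in adult and 105 to 164 in sarcopenic libraries, so that the ranges met through rat 47. Kif18b and Kif14, mitotic kinesins, rose by 2.16 (SE 0.47) and 2.15 (SE 0.61), and Spc25, of the kinetochore, by 1.99 (SE 0.46), each from a median of at most 0.126 TMM CPM in adults. Melk, a kinase of dividing cells, rose by 2.33 (SE 0.47). Without rat 44 neither Kif14 nor Melk had enough reads to be tested. Espl1, separase, which frees sister chromatids, fell against the list, with 11.3, 15.6 and 23.3 TMM CPM in adult and 2.14, 4.13 and 7.09 TMM CPM in sarcopenic libraries and a log2 fold change of -1.97 (SE 0.24) without overlap.

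**Figure D4:**
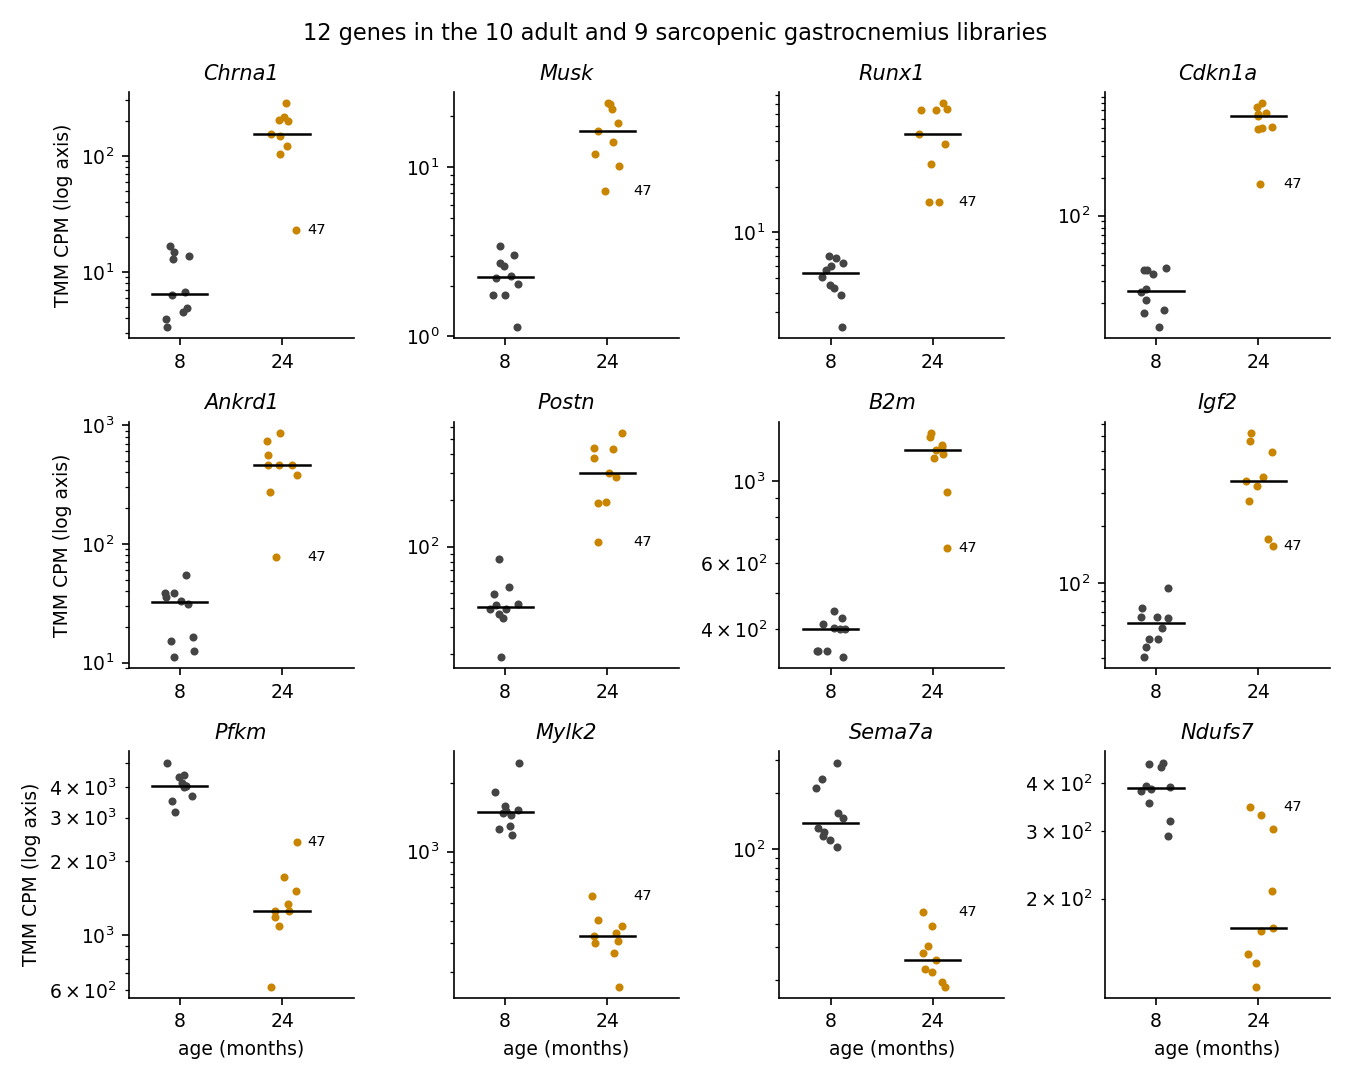
TMM CPM (vertical log axes) of 12 genes in each of the 10 adult and 9 sarcopenic gastrocnemius libraries (horizontal axes, age in months), 1 point per library, with bars at the medians and sarcopenic rat 47 marked. The ages are separate in all genes but Ndufs7, and rat 47 lies at the adult side of the sarcopenic group in each.

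Extracellular matrix genes rose in 33 of 40 entries, 3 fell and 4 did not pass (median 0.99), with a summed level of 2168 to 3530 TMM CPM in adult and 3757 to 7217 in sarcopenic libraries. Col19a1, a minor collagen found near synapses, rose most, by 4.11 (SE 0.41) on the log2 scale, with 0.239, 0.665 and 1.21 TMM CPM in adult and 2.03, 7.97 and 29.5 TMM CPM in sarcopenic libraries. Postn, periostin, a matrix protein of repairing tissue, had 19.2, 40.6 and 83.2 TMM CPM in adult and 107, 302 and 546 TMM CPM in sarcopenic libraries and rose by 2.86 (SE 0.36) (edgeR, adjusted p = 1e-08). Cilp, a matrix protein that binds TGF-beta, rose by 2.53 (SE 0.35). Of the 2 entries of Adamts12, a secreted metalloprotease, the one with the larger change rose by 2.28 (SE 0.29). None of these 4 overlapped between the ages. Timp4, an inhibitor of metalloproteases, fell by 0.79 (SE 0.18).

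Growth factors and their antagonists rose in 13 of 22 cases, with 6 lower (median 0.75). Igf2 (ENSRNOG00000020369), a growth factor of developing muscle, had 40.4, 61.4 and 93.6 TMM CPM in adult and 156, 348 and 624 TMM CPM in sarcopenic libraries and rose by 2.60 (SE 0.23) (edgeR, adjusted p = 3.21e-13). Fst, follistatin, which blocks myostatin and activin, had 3.13, 4.41 and 4.99 TMM CPM in adult and 13.4, 19.7 and 33.1 TMM CPM in sarcopenic libraries and rose by 2.34 (SE 0.26), without overlap like Igf2. Chrd, the BMP antagonist chordin, rose by 1.71 (SE 0.22) and Igfbp2, an IGF binding protein, by 2.09 (SE 0.46), with overlap. Fzd7, a Wnt receptor of satellite cells, fell by 1.07 (SE 0.16) without overlap.

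Igf2, Mir675 and Cdkn1c belong to the imprinted genes, which are transcribed from 1 parental copy. Of 10 imprinted genes with a symbol 9 rose (median 0.94), and Snurf, from the Prader-Willi region, fell by 1.30 (SE 0.42) from at most 0.503 TMM CPM in any adult. Rat 43 had the highest value of both Igf2 (624 TMM CPM) and Mir675 (3739 TMM CPM).

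Neurotrophic and axon guidance genes had no common direction, with 10 of 23 higher and 11 lower (median -0.39). Draxin, which repels growing axons, rose by 4.50 (SE 0.54) and Artn, artemin, a ligand of the GDNF family, by 3.32 (SE 0.39), from at most 0.211 and 0.653 TMM CPM in any adult. Sema3a, a secreted repellent of axons, had 0.298, 0.373 and 0.503 TMM CPM in adult and 1.17, 1.86 and 7.92 TMM CPM in sarcopenic libraries and rose by 2.86 (SE 0.37), while Sema7a fell as given above. The 4 genes were without overlap, and rat 42 held the highest Sema3a, with the next sarcopenic library at 3.97 TMM CPM.

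Of 15 genes listed for antigen presentation 9 had a symbol, and all 9 rose, with a median of 1.36. Their summed level was 477 to 668 TMM CPM in adult and 943 to 1738 in sarcopenic libraries. B2m, the light chain of class I molecules, had 336, 399 and 447 TMM CPM in adult and 662, 1216 and 1348 TMM CPM in sarcopenic libraries and rose by 1.56 (SE 0.13) (edgeR, adjusted p = 1.67e-13). Nlrc5, the class I transactivator, rose by 1.94 (SE 0.19). RT1-O1 and RT1-CE10, class I genes, rose by 4.19 (SE 0.59) and 1.46 (SE 0.16). These values are uncertain because reads of similar RT1 genes may be lost or misassigned. None of the 4 overlapped.

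Most macrophage and lymphocyte markers rose as well, while the mast cell tryptases given below did not pass. Of 10 macrophage markers 9 rose and 1 did not pass (median 1.27), and their summed level was 69.5 to 84.2 TMM CPM in adult and 126 to 261 in sarcopenic libraries, without overlap. Sirpa, an inhibitory receptor of myeloid cells that other cells also make, had 21, 22.7 and 25.2 TMM CPM in adult and 37.9, 71.5 and 136 TMM CPM in sarcopenic libraries and rose by 1.83 (SE 0.15). Clec7a, the beta-glucan receptor dectin-1, rose by 2.03 (SE 0.27), Irf8, a myeloid transcription factor, by 1.63 (SE 0.20), and Cx3cr1, the fractalkine receptor, by 1.60 (SE 0.39). Of 8 lymphocyte markers 7 rose, and 3 of the 4 that reached 20 reads in an adult library, with sums over the 8 of 6.61 to 10.2 and 15.0 to 36.3 TMM CPM. Cd28, the costimulatory receptor of T cells, had 0.179, 0.994 and 2.29 TMM CPM in adult and 6.58, 11.7 and 17.2 TMM CPM in sarcopenic libraries and rose by 3.41 (SE 0.31), and Ighm, the heavy chain of IgM, by 1.82 (SE 0.26). Foxp3, the factor of regulatory T cells, fell by 2.12 (SE 0.32) from a median of 2.35 TMM CPM. The kit does not mark strand, so reads at Foxp3 cannot be told from those of any overlapping gene.

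Vessel, blood and fat markers with a symbol were mostly lower with TMM scaling. The blood and fat lists rest on 2 genes each, of 5 and 7 listed. Of 12 endothelial markers 10 fell and 2 did not pass (median -0.47), with sums of 294 to 458 TMM CPM in adult and 223 to 354 in sarcopenic libraries, and under library totals 2 of the 12 still fell. Flt1, a VEGF receptor, fell by 0.71 (SE 0.16). Hba1 and Hba2, the alpha globins of red cells, fell by 0.99 (SE 0.27) and 0.90 (SE 0.28). Reads that match both may be lost or misassigned. Rat 47 had 206 and 71.6 TMM CPM of them against at most 90.3 and 24.7 in the other sarcopenic rats. Without rat 47 both genes fell by 1.31. Plin4, a lipid droplet protein of fat and muscle, fell by 1.40 (SE 0.16), while Lipe, hormone-sensitive lipase, fell by 0.46 (SE 0.19) and lost its call when any 1 of 9 rats was left out, to an adjusted p of 0.0833 from edgeR without rat 10.

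Of the Schwann cell markers Cnp, an enzyme of myelin, rose by 1.64 (SE 0.15), and Gjb1, connexin 32, had a log2 fold change of -1.10 (SE 0.58) that did not pass (edgeR, adjusted p = 0.115). Without rat 42, its highest sarcopenic library, Gjb1 had -2.50 (adjusted p = 0.000852 from edgeR). The mast cell tryptases Tpsab1 (-0.30, SE 0.22) and Tpsb2 (-0.02, SE 0.16) and the tendon factor Scx (0.40, SE 0.19) did not pass. Scx passed without rat 47 (0.48, adjusted p = 0.0376 from edgeR), without adult rat 2 (0.49), under library totals and with limma voom. Of 14 muscle fibre markers 9 had a symbol, and 8 of these fell. The 9 summed to 23668 to 48611 TMM CPM in adult and 7679 to 22254 in sarcopenic libraries. Atp2a1, Pygm, Pfkm, Myoz1, Actn3 and Klhl41 among them are also members of lists above, so this fall is no separate result. The part of the immune, vessel and blood markers in the other results was not tested. Widely used markers such as Cd68, Pecam1, Cd3e, Adipoq and Mbp had no symbol here and were not analysed.

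Lipid genes were divided, with 8 of 18 higher and 10 lower (median -0.36). Lpin1, a phosphatidate phosphatase and coactivator, had 78.3, 119 and 145 TMM CPM in adult and 19.9, 36.2 and 76 TMM CPM in sarcopenic libraries and fell by 1.61 (SE 0.20) without overlap, and Mlxipl, the glucose-sensing factor ChREBP, had 47.5, 58.2 and 65.5 TMM CPM in adult and 10.2, 18 and 51.9 TMM CPM in sarcopenic libraries and fell by 1.56 (SE 0.20). Rat 47 alone lay within the adult range of Mlxipl. Acsl4, which activates arachidonic acid, rose by 1.50 (SE 0.22), and Scd2, a desaturase, by 1.34 (SE 0.25).

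Stress response and protein folding genes fell in 11 of 16 cases and rose in 3 (median -0.37), but with library totals 3 fell and 4 rose. Atf4, the main factor of the integrated stress response, had 242, 295 and 374 TMM CPM in adult and 143, 196 and 235 TMM CPM in sarcopenic libraries and fell by 0.63 (SE 0.10) without overlap. Sil1, a cofactor of the chaperone BiP, rose by 1.29 (SE 0.12), Hspb8, a small heat shock protein of chaperone-assisted autophagy, had 348, 473 and 555 TMM CPM in adult and 549, 1041 and 1515 TMM CPM in sarcopenic libraries and rose by 1.15 (SE 0.16), and Aldh1l2, of mitochondrial folate metabolism, rose by 1.23 (SE 0.35).

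All 4 polyamine genes with a symbol passed the test, 3 higher and 1 lower. Sat1, which acetylates polyamines for export, had 21.5, 28.8 and 46.2 TMM CPM in adult and 37.4, 90 and 153 TMM CPM in sarcopenic libraries and rose by 1.59 (SE 0.22), and Azin1, which protects ornithine decarboxylase from its antizyme, and Sms, spermine synthase, rose by 0.48 (SE 0.12) and 0.43 (SE 0.13). Amd1, S-adenosylmethionine decarboxylase, which feeds spermidine synthesis, had 62.1, 76.3 and 91.5 TMM CPM in adult and 35.3, 39.1 and 58.6 TMM CPM in sarcopenic libraries, without overlap, and fell by 0.90 (SE 0.09) (edgeR, adjusted p = 4.85e-11).

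Across the 34 lists, the summed level of rat 47 was the nearest of the 9 sarcopenic rats to the adult mean in 24. That of rat 41 was the furthest in 13. Some lists share members, so these counts are not made up of independent lists. The rats did not keep 1 order for all functions. Rat 41 had the lowest glycolysis sum, 9281 TMM CPM, and the lowest fast sarcomere sum, 8329, while rats 42 and 50 had the lowest sums of mitochondrially encoded genes, 43777 and 42373, and of complex I, 1955 and 2058. Rat 44 had glycolysis at 22597, below every adult, but complex I at 4677 and mitochondrially encoded genes at 107945, both inside the adult ranges of 4309 to 5930 and 92195 to 130824.

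**Figure D5:**
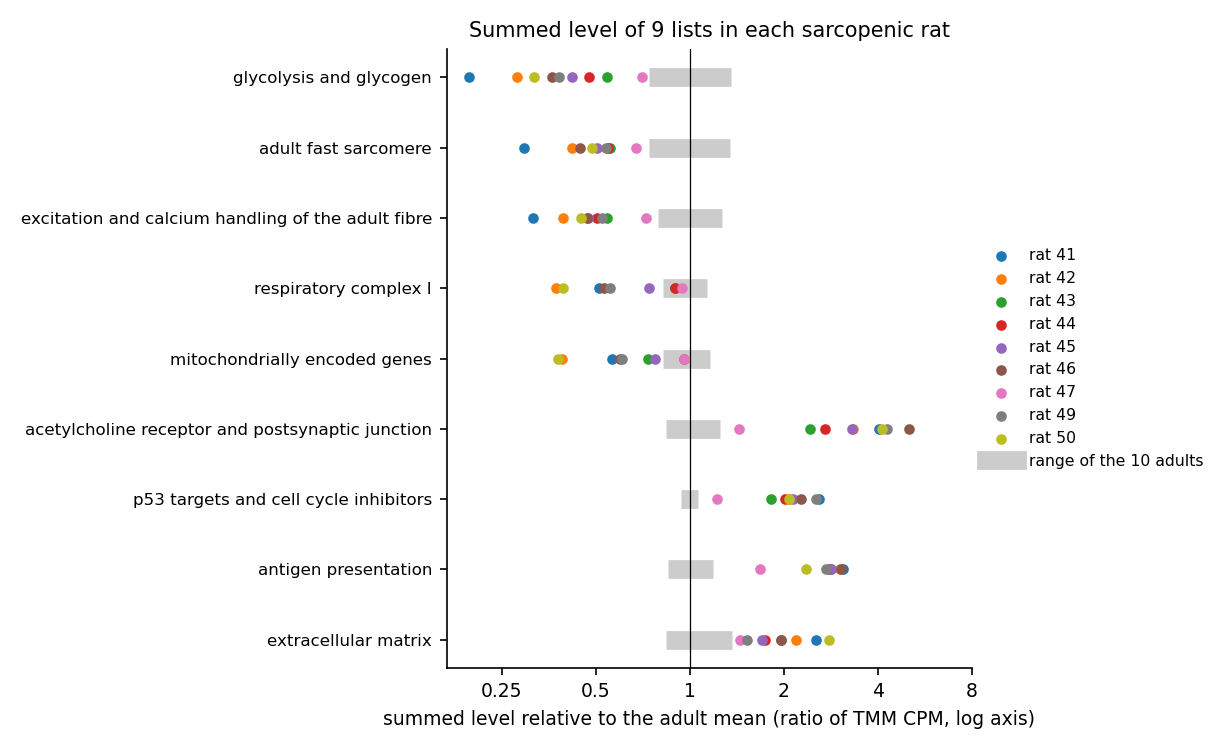
Summed TMM CPM of 9 lists in each of the 9 sarcopenic rats, divided by the mean of the 10 adults (horizontal log axis), with grey bars for the range of the adults. Rat 47 lies nearest to the adults in 8 of these 9 lists, rat 41 furthest in glycolysis and the fast sarcomere, and rats 42 and 50 furthest in complex I and the mitochondrially encoded genes.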

How the data were processed

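Whole-number read counts per gene, as the authors deposited them, were used for all 58 libraries of gastrocnemius and triceps brachii, and the groups were taken from the muscle and age in the sample labels. Per the labels and the study's methods, polyA RNA was made into TruSeq v2 libraries, which do not mark strand, reads were demultiplexed with CASAVA 1.8 and aligned to Rnor 6.0 with STAR 2.3.0e, and the authors counted reads on genes with HTSeq. The strand option is not given in the sources used here. Reads of a gene and of its antisense or overlapping partner therefore cannot be told apart by strand. Per the methods, alignments with low mapping scores were left out, and HTSeq counted with its union option. Reads that match near-identical copies or overlapping genes may thus be missing from the counts or assigned to the wrong gene.

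Genes that never reached 20 reads in any library were left out. Counts of all 58 libraries were fitted in edgeR 4.0.16 (R 4.3.3) with TMM factors, 1 mean per muscle and age, and a quasi-likelihood test of 24 against 8 months, with Benjamini-Hochberg adjustment over 14947 genes. Regulated means an adjusted p under 0.05 and a fold over 2. A test of whether the change differed between the muscles had the rat as a block. Single values per library were compared with exact two-sided permutation tests. On simulated counts of 14550 genes for this comparison, the script recovered 198 of 200 genes changed 4-fold, with 2 false calls. The 200 genes were changed up or down at random, were drawn from those above 1 TMM CPM in adults, and no others were changed. The simulation therefore does not bear on the scaling or on the recovery of smaller changes or of genes at low levels.

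Symbols for 2163 identifiers came from a supplementary table of the study that was read from page images. In it, 357 identifiers were brought from 12 to 11 digits and 59 symbols were corrected for l and 1 or o and 0. Of the symbols, 178 were not found in RefSeq. The lists and genes were chosen with earlier results of these data known. Named genes come from a pool, not all of which is named: up to 4 members of each list with the largest change past the test and the member furthest in the other direction, all members of short lists, the 3 largest rises and falls of each level class, the 5 largest gains and losses in level, and Cdkn1a, Chrna1, Chrnb1, Chrne, Musk, Igf2 and Myod1. Of genes without a symbol, at most 2 per direction are named. DESeq2 1.42.0, limma 3.58.1 (voom), other scalings, filters and sets of libraries, a block by label number, and leaving out each library served as alternatives.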

Additional observations from a re-analysis of the deposited data

Results flagged for a closer look

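Within each age, a value was singled out when its distance to the nearest other library was large against the range of its group by Dixon's criterion. Of 354 groups examined, 43 (12.1%) met it. The criterion gives about 1 in 20 for independent, normally spread values. That rate does not apply here, since genes and lists were examined as TMM CPM without logs. The genes were also chosen for large changes, and some lists share members. The 43 were not spread evenly over the rats, with 12 in sarcopenic rat 47, 7 in adult rat 4 and 4 in sarcopenic rat 41.

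Rat 47 lay on the adult side of the other sarcopenic rats each time. It had the lowest sarcopenic value of Cdkn1a, 180.2 TMM CPM with the next at 498. It had the highest sarcopenic values of Acsl1 (595 TMM CPM), Amd1 (58.6 TMM CPM), Foxp3 (1.46 TMM CPM), Hba1 (206 TMM CPM) and Hba2 (71.6 TMM CPM). The same held for Lpin1 (76.0 TMM CPM), Mlxipl (51.9 TMM CPM), Pfkfb1 (96.1 TMM CPM), Phkg1 (118 TMM CPM) and Snurf (0.570 TMM CPM), and for the summed level of blood cell markers, 277 TMM CPM.

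Rat 41 had the highest sarcopenic Cacna1e (1.60 TMM CPM) and Tnnt2 (63.7 TMM CPM) and the lowest Mss51 (36.2 TMM CPM) and Pc (20.8 TMM CPM). Rat 42 had the highest Cx3cr1 (1.82 TMM CPM), Gjb1 (0.684 TMM CPM) and Sema3a (7.92 TMM CPM). Single high values were those of Mir675 in rat 43 (3739 TMM CPM), Ighm in rat 49 (14.1 TMM CPM) and Myh8 in rat 50 (21.3 TMM CPM). Rat 46 had the highest sarcopenic 7SK (0.893 TMM CPM) and Sohlh2 (7.85 TMM CPM). Rat 44 had by far the deepest library, 72297573 reads with the next at 28495872.

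Among the adults, rat 4 had the highest AABR07034455.2 (6.62 TMM CPM), Asb11 (185 TMM CPM), Atp2a1 (7405 TMM CPM), Mss51 (727 TMM CPM), Mylk2 (2446 TMM CPM) and Sil1 (13.0 TMM CPM) and the lowest sum of the other ion channels (297 TMM CPM). Rat 5 had the highest Cyp2c11 (1.06 TMM CPM), Krt18 (0.354 TMM CPM) and Tat (1.21 TMM CPM). Rat 1 had the lowest Acsl4 (19.3 TMM CPM) and the highest Grin2c (0.407 TMM CPM), rat 2 the lowest Idh3a (393 TMM CPM) and the highest Kif18b (0.391 TMM CPM) and Spc25 (0.279 TMM CPM), rat 3 the highest Draxin (0.211 TMM CPM) and RGD1566226 (0.141 TMM CPM), and rat 7 the highest AC133316.1 (8.26 TMM CPM).

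The change from 8 to 24 months differed between gastrocnemius and triceps brachii for 2159 genes in edgeR's test of the difference. Of the 138 genes examined by name, 128 were among them, a share that follows from how the symbols were selected.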

How the results depend on the processing

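With the choices of test, filter and libraries other than library totals, the number of regulated genes lay between 1155 with filterByExpr and 1694 with no filter on low counts, against 1349. DESeq2 gave 1325, limma voom 1347, RLE factors 1346, the 19 libraries alone 1338 and the 29 gastrocnemius libraries 1341, and of the 1349 genes 97.0% were regulated in the same direction with DESeq2 and 91.4% with limma voom. Library totals without factors gave 2067 regulated genes, 1902 higher and 165 lower, sharing 84.7% of the 1349, and 8099 higher and 1067 lower by adjusted p alone. By level class, from 0.1 to 1 TMM CPM upward, these totals gave 710, 740, 377 and 64 regulated genes higher and 43, 47, 38 and 23 lower, with 8 lower at 1000 or more. Genes without overlap numbered 1276 above and 120 below the adults. With filterByExpr 268 were higher and 53 lower at 0.1 to 1. Under 0.1 TMM CPM, DESeq2 gave 2 higher and 3 lower and limma voom 4 higher. The difference between the muscles was called for 1406 genes with no block by rat.

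Leaving out each library in turn gave 1210 to 1475 regulated genes (860 to 1034 higher, 325 to 441 lower) and 6104 to 6850 by adjusted p (2916 to 3508 higher, 3110 to 3364 lower). By class the higher and lower ranges were 5 to 8 and 2 to 9 under 0.1, 368 to 428 and 66 to 95 at 0.1 to 1, 312 to 375 and 86 to 113 at 1 to 10, 143 to 187 and 91 to 131 at 10 to 100, 29 to 35 and 53 to 77 at 100 to 1000, and 1 to 2 and 11 to 18 at 1000 TMM CPM or more. The 2 lower genes under 0.1 were left without rat 5, and the 1 higher gene at 1000 or more without any of rats 41, 44, 4, 7 and 8.

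The replicate block by label number gave 1295 regulated genes (946 higher, 349 lower). The numbers do not pair the rats: over 12661 genes the deviations of same-numbered libraries correlated between -0.163 and 0.151, 3 of 9 over 0.1, and 0 sarcopenic libraries correlated best with their own number.

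Under library totals the median log2 fold change of the mast cell markers was 0.17 and those of Tpsab1 and Tpsb2 were 0.025 and 0.31. Tpsb2 also ranged from -0.086 to 0.045 when 1 library was left out. The median of the Schwann cell markers was -0.15 with limma voom and ranged from -0.47 without rat 42 to 0.45 when 1 library was left out. Neither tryptase passed the test as reported, and the cause was not tested. Mt-co1, Acsl1, Acadm and Lipe lost their calls with library totals and Tat lost its call with DESeq2. Scx passed with library totals (0.76), with limma voom (0.44), without rat 47 (0.48) and without adult rat 2 (0.49), and Gjb1 with limma voom. Which scaling is apt cannot be told from the counts. At low levels few reads limit the precision, as the SE of 0.37 at 0.1 to 1 TMM CPM shows.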
